A study of Mus musculus with 8 samples.

Results

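The 10 genes described here are Egr1, Egr2, Nr4a1, Ier2, Ier3 and Btg2, which belong to families known for immediate early induction, and the Krüppel-like factors Klf2, Klf4, Klf5 and Klf6. They were taken as a list of names chosen with earlier results of these data known. Counts of the 10 set against all tested genes are therefore no independent evidence. All 10 were found among the 47729 gene identifiers of the series and among the 12900 genes that reached at least 1 RPKM in at least 2 libraries. RPKM scales the reads of a gene to its transcript length and to the size of the library, so levels of different genes can be set side by side per length. The series followed EpCAM-positive ductal cells, sorted from the healthy liver of adult male C57/B6 mice, as they were placed in Matrigel with organoid medium. It holds 2 libraries of freshly sorted cells, 2 of cells 12 h in culture, 1 of cells 24 h in culture, 1 whose title gives 48h while its other labels give 24 h, and 2 of organoids at 6 days. The labels name no allele, and no agent beyond the culture itself, that separates the groups, and all libraries, fresh ones included, came from tissue that had been dissociated and sorted. The labels do not say whether the libraries of a group came from separate mice, so every p-value below measures the spread between libraries, which may be technical. Liver that had not been dissociated was not analysed here, so a level set by dissociation and sorting cannot be told apart in fresh cells from the level in the animal.

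Immediate early genes are transcribed within minutes of a stimulus, without new protein synthesis, mostly through serum response factor with its ternary complex partners and through CREB. Enzymatic digestion and sorting of a tissue are known to induce them, so they are widely used as a mark of dissociation in liver and other solid organs. Egr1 and Egr2 encode zinc finger activators, Nr4a1 an orphan nuclear receptor, Ier2 and Ier3 short regulatory proteins, and Btg2 an antiproliferative cofactor of mRNA decay. Krüppel-like factors bind GC-rich sites through zinc fingers. Some, such as Klf2, Klf4 and Klf6, also respond early to stimuli, while Klf5 is known as a factor of proliferating epithelia, bile duct epithelium included.

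Between 13831490 and 28420989 effective reads stood behind a library, and the 24 h library had the fewest genes at 1 RPKM or more, 8814 against 10605 to 11263 in the others. All 9 ductal markers were at 1 RPKM or more in all 8 libraries, and their sum was 28408 and 32203 RPKM in the fresh libraries and between 15515 and 22337 RPKM in the cultured ones. Hepatocyte markers, 8 genes, summed to 819 and 883 RPKM in the fresh libraries and to between 7.06 and 74.4 RPKM in the cultured ones, with Alb, Ttr and Apoa1 among them. Endothelial markers, 10 genes, summed to 5.15 and 5.32 RPKM in fresh cells and to between 0.0129 and 2.17 RPKM in culture. Mesenchymal markers, 10 genes, summed to 14.6 and 4.26 RPKM in fresh cells and to at most 2.66 RPKM in culture. The 10 immune markers summed to 29.6 and 21.0 RPKM in fresh cells and to between 4.88 and 27.2 RPKM in culture, with the pan-leukocyte gene Ptprc at 0.0143 RPKM in the first fresh library and at 0 in the other 7. Of 5 mesothelial markers, Msln went from 29.3 and 21.4 RPKM in fresh cells to between 413 and 488 RPKM in the 48h-titled and organoid libraries, while Gpm6a went from 16.6 and 28.7 RPKM to 5.78 RPKM in the 48h-titled library and to at most 0.0156 RPKM in the other cultured ones. The other mesothelial markers, Upk3b, Wt1 and Lrrn4, were at or below 0.776 RPKM in every library. The summed ductal, hepatocyte, endothelial and mesenchymal markers were thus each higher in both fresh libraries than in any cultured one. The summed immune markers were not, and of the 3 immune markers tested only Csf1r was. Cd68 was at 21.7 and 7.57 RPKM in fresh cells and at 22.8 RPKM in the 48h-titled library. Lyz2 was at 2.07 and 1.89 RPKM in fresh cells and at 7.996 RPKM in the second 12 h library. Of the 10 genes described here, 9 were higher in both fresh libraries than in any cultured one. The part of the markers in the results was not tested. In these bulk libraries fewer cells of a type and less RNA per cell cannot be told apart.

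In fresh cells Ier3 was by far the most abundant of the 10 per length, at 2522 ± 211 RPKM (SD, n = 2). Ier2 at 442 ± 4.25 RPKM and Egr1 at 425 ± 93.6 RPKM followed and overlapped each other. Klf5 came next at 237 ± 1.26 RPKM, above Btg2 at 175 ± 7.40 RPKM and Klf6 at 157 ± 31.4 RPKM, which overlapped, and then Nr4a1 at 103 ± 8.61 RPKM. Klf4, Klf2 and Egr2 formed a low group whose ranges overlapped, at 8.14 ± 4.03, 6.23 ± 1.38 and 5.59 ± 1.95 RPKM. Together the 10 transcripts took 1.08% and 1.17% of the summed RPKM of the fresh libraries, and between 0.311% and 0.541% of the cultured ones.

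In the organoids the order differed. Ier3 was still the highest at 1215 ± 657 RPKM, and Klf5 at 113 ± 6.42 RPKM stood second in both organoid libraries, its range meeting that of Ier2 at 78.3 ± 47.5 RPKM. Btg2 at 58.1 ± 27.6 RPKM overlapped Ier2 and lay above Klf6 at 21.4 ± 0.306 RPKM. Egr1 at 13.1 ± 10.2 RPKM overlapped Nr4a1 at 10.9 ± 2.72 RPKM and lay below Klf6. The low group was Klf4 at 3.68 ± 0.249, Klf2 at 1.11 ± 0.964 and Egr2 at 0.144 ± 0.0839 RPKM, and here none of the 3 overlapped.

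**Figure D1:**
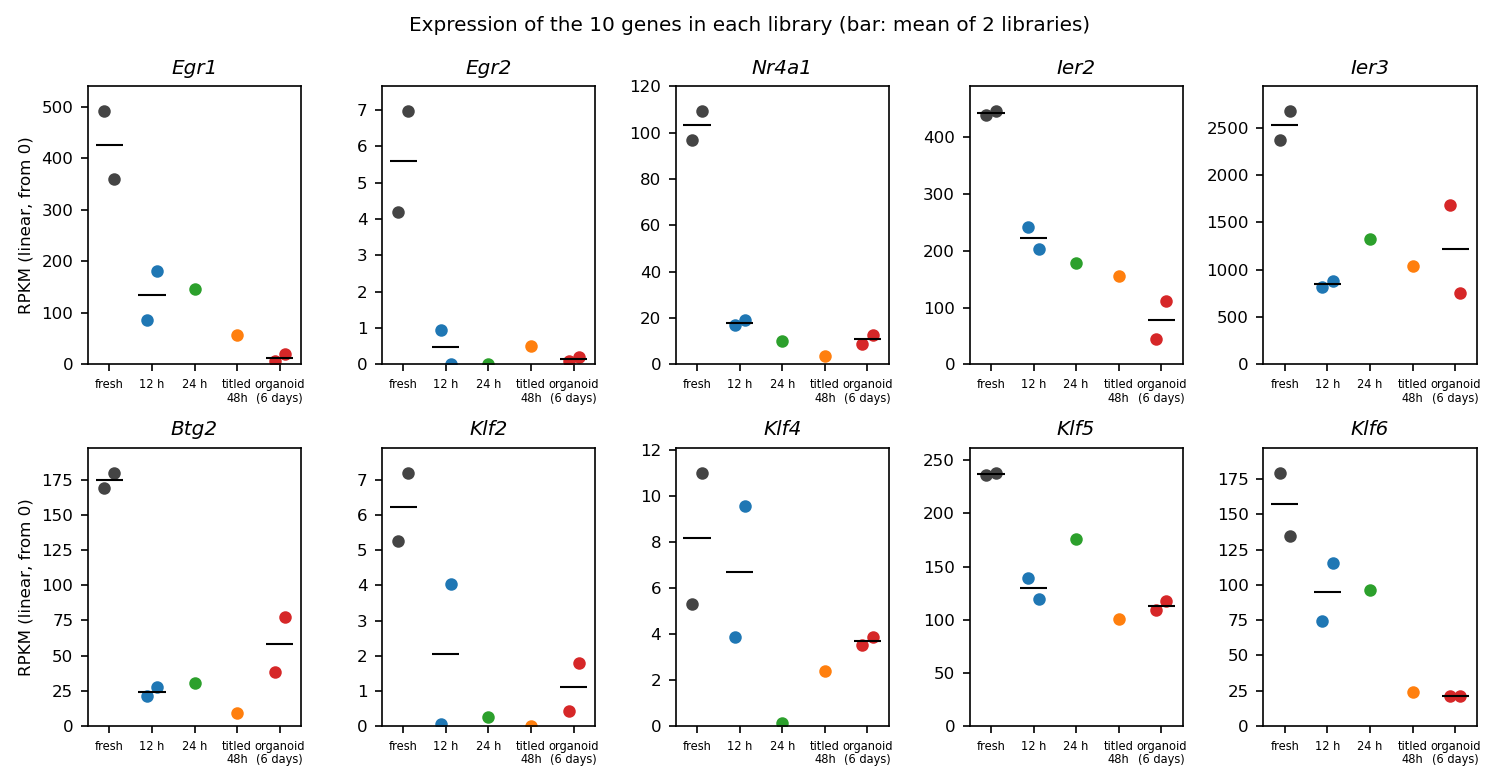
RPKM of each of the 10 genes (vertical axis, linear from 0, its own scale per panel) in the 8 libraries, as 1 point each, by group, with a bar at the mean where a group has 2 libraries. Nr4a1 and Btg2 are already low at 12 h, and Klf5 stays at 100.6 RPKM or more in every library. Klf6 is below both fresh libraries at 12 h and 24 h, and lowest in the library titled 48h and the organoids.

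At 12 h, 3 of the 10 genes were lower than in fresh cells past the threshold (an adjusted p of 0.05 over all genes tested, limma), namely Nr4a1, Btg2 and Egr2, against a background of 3.72% of all tested genes called lower. Egr2 reached 1 RPKM in the fresh libraries only. It thus passed the filter through the group where it is high, which favours a lower call. None of the 10 was called higher, where the background was 3.09%, and limma gave 0 of them as higher at an unadjusted p under 0.05. The groups did not overlap for 9 of the 10, all lower at 12 h, against 23.6% of all tested genes, and Klf4 was the exception. The median log2 change of the 10 was -1.61, beside 0.24 for all tested genes. By family, all 3 calls fell among the 6 immediate early genes, whose median log2 change was -1.97, and 0 of the 4 Krüppel-like factors were called, with a median of -0.81. Whether the 2 families differ was not tested.

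Nr4a1, the orphan receptor also called Nur77 (chromosome 15, 101254269 to 101274795, plus strand, GRCm38), stood at 97.0 and 109 RPKM in the fresh libraries. It was at 16.9 and 19.2 RPKM at 12 h, 9.94 RPKM at 24 h, 3.43 RPKM in the 48h-titled library, and 8.97 and 12.8 RPKM in the organoids. All 6 cultured libraries lay below both fresh ones, at 3.33% to 18.6% of the fresh mean. At 12 h it was 5.71-fold lower (log2 change -2.45, SE 0.36, limma adjusted p = 0.026), and in organoids 9.46-fold lower (log2 change -3.15, SE 0.36, adjusted p = 0.00942). Between organoids and 12 h the log2 change was -0.70 (adjusted p = 0.347).

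Btg2, the antiproliferative cofactor (chromosome 1, 134075170 to 134079120, minus strand), was at 169 and 179.9 RPKM in fresh cells and at 21.5 and 27.4 RPKM at 12 h. It stood at 30.2 RPKM at 24 h, 9.26 RPKM in the 48h-titled library, and 38.6 and 77.6 RPKM in the organoids. The 12 h level was 7.14-fold lower than the fresh one (log2 change -2.80, SE 0.42, limma adjusted p = 0.0265). In organoids the log2 change from fresh cells was -1.65 (SE 0.42) and missed the threshold (adjusted p = 0.0535), and 5 of 10 alternative settings called it. Both organoid libraries were above both 12 h libraries, a log2 difference of 1.14 that did not pass (SE 0.42, adjusted p = 0.209).

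Egr2, also known as Krox20 (chromosome 10, 67535475 to 67542188, plus strand), was a low transcript, at 4.21 and 6.97 RPKM in fresh cells. It was at 0.941 and 0 RPKM at 12 h, 0 at 24 h, 0.511 RPKM in the 48h-titled library, and 0.0851 and 0.204 RPKM in organoids, so it was at 1 RPKM or more in fresh cells only. Those values rest on about 218 and 673 reads in the fresh libraries and on 0 to 67 reads in a cultured one, and at 0 reads the limit that 3 reads allow was 0.0406 RPKM in the second 12 h library and 0.0461 RPKM at 24 h. Mean RPKM was 11.9-fold lower at 12 h (log2 change of RPKM + 1 -2.21, SE 0.45, limma adjusted p = 0.0419) and 38.7-fold lower in organoids (log2 change -2.49, SE 0.45, adjusted p = 0.0242). The offset of 1 RPKM understates the change of so low a gene: with an offset of 0.1 the log2 change was -4.10 at 12 h and -4.54 in organoids, and neither passed (adjusted p = 0.0948 and 0.0738). With no filter on low values neither call was kept (adjusted p = 0.113 and 0.0835).

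All 3 calls at 12 h were lost when either fresh library or either 12 h library was left out, leaving a group with 1 library. Few or none of all tested genes were called in those fits, so that loss is not particular to these 3. Without single libraries the log2 change ranged from -2.54 to -2.36 for Nr4a1, -2.96 to -2.63 for Btg2 and -2.69 to -1.73 for Egr2. The call of Egr2 was also lost without either organoid library.

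The promoters of these 3 genes, and of Klf6, which was called lower in organoids and not at 12 h, are shown because early response genes are known for short response elements just before the start site. Each run is the 250 bases before a RefSeq start on the GRCm38.p6 assembly, 5′ to 3′ on the gene's strand. Capitals mark matches to the motifs searched on both strands: the serum response element core known as the CArG box, the cAMP response element TGACGTCA and its part TGACG, the AP-1 site TGANTCA, the EGR site GCGNGGGCG and the GC box GGGCGG that Krüppel-like and Sp factors are known to bind.
Nr4a1, chr15:101266596-101266845, plus strand: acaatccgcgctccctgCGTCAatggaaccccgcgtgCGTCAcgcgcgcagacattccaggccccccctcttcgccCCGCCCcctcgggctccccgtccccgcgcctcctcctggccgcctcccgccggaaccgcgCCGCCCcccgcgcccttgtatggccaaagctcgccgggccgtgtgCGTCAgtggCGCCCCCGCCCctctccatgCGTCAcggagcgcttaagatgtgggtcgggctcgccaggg
Btg2, chr1:134079156-134079405, minus strand: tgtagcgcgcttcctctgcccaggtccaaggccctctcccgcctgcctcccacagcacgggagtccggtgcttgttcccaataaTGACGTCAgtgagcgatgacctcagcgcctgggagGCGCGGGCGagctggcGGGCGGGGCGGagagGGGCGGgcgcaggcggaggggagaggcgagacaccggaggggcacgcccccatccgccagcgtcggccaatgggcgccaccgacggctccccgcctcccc
Egr2, chr10:67537619-67537868, plus strand: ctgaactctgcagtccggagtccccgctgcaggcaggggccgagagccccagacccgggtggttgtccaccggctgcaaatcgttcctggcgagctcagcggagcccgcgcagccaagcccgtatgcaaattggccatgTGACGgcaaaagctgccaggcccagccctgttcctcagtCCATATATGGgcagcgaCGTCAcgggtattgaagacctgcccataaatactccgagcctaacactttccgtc
Klf6, chr13:5861239-5861488, plus strand: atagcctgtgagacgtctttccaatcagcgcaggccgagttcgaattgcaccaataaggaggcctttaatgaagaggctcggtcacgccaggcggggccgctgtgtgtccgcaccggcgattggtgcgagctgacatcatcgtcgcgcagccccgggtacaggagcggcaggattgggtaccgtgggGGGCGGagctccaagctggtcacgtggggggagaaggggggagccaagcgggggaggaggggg

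Nr4a1 had 4 TGACG matches, 1 EGR site and 3 GC boxes, with the EGR site from -60 to -52 running into the GC box from -55 to -50. Btg2 had the whole TGACGTCA from -166 to -159, which holds TGACG on both strands, an EGR site from -131 to -123 and 3 GC boxes. Egr2 had a CArG box from -72 to -63 and TGACG on either side of it, at -111 and, on the other strand, at -55. Klf6 had a single GC box from -63 to -58. Windows of 7 of the 10 genes were searched (Egr2, Klf2, Klf4, Klf6, Nr4a1, Ier3 and Btg2). TGACG was found in 5 of the 7, against 17.7% of 32817 windows of the same length, the EGR site in 4 against 4.70%, and the GC box in 6 against 32.7%. The CArG box was found in 1 against 1.47%, TGACGTCA in 1 against 1.55%, and TGANTCA in 0 against 6.75%. These are matches of letters in windows that are rich in G and C (74.4% in Nr4a1, 73.2% in Btg2, 61.6% in Egr2, 64.8% in Klf6) and show no binding.

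In organoids, 5 of the 10 genes were lower than in fresh cells past the threshold, namely Egr1, Egr2, Nr4a1, Ier2 and Klf6, against 4.94% of all tested genes called lower. Egr2 is in this count although it passed the filter through the fresh libraries alone. None was called higher, where the background was 5.15%, and limma gave 0 as higher at an unadjusted p under 0.05. All 10 had both organoid libraries below both fresh ones, against 26.6% of tested genes. Over all 6 cultured libraries together, 9 of the 10 (all but Klf4) lay below both fresh libraries, against 10.8% of tested genes. The median log2 change of the 10 was -2.17, beside 0.17 for all tested genes, with -2.56 for the 6 immediate early genes, 4 of them called, and -1.45 for the 4 Krüppel-like factors, 1 of them called. All 5 calls were lost without the first or the second fresh library, and all but that of Nr4a1 without the first organoid library. Few or none of all tested genes were called in those fits, so that loss is not particular to these 5. Without the second organoid library Egr2 was not called and Btg2 was. The log2 changes of the 10 stayed below 0 in each of these fits. The 12 h and organoid comparisons share the fresh libraries, so they are not independent of each other.

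Egr1, the zinc finger activator most used as a readout of the ERK pathway (chromosome 18, 34859823 to 34864984, plus strand), was at 492 and 359 RPKM in fresh cells. It stood at 85.8 and 182 RPKM at 12 h, 146 RPKM at 24 h, 58.0 RPKM in the 48h-titled library, and 5.85 and 20.3 RPKM in organoids. All cultured libraries were below the fresh ones, and both organoid libraries were below every other library. From rank 80 and 106 among the tested genes in fresh cells, Egr1 stood at rank 247 to 1240 in the cultured libraries before day 6 and at rank 5635 and 3235 in organoids. Its mean was 32.6-fold lower in organoids than in fresh cells (log2 change -5.12, SE 0.62, limma adjusted p = 0.011). At 12 h the log2 change of -1.74 (SE 0.62) did not pass (adjusted p = 0.135), and that of -3.38 between organoids and 12 h missed the threshold (SE 0.62, adjusted p = 0.0536).

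Ier2 (chromosome 8, 84661331 to 84662852, minus strand), a nuclear early response protein, was at 439 and 445 RPKM in fresh cells and at 241 and 203 RPKM at 12 h. It was at 178 RPKM at 24 h, 155 RPKM in the 48h-titled library, and 44.7 and 112 RPKM in organoids. Organoids lay below every other library, as for Egr1, but the gene stayed at 10.1% and 25.3% of its fresh mean there, beside 1.38% and 4.77% for Egr1. The mean was 5.65-fold lower in organoids (log2 change -2.62, SE 0.47, limma adjusted p = 0.0232), while the 12 h log2 change of -1.0 did not pass (SE 0.47, adjusted p = 0.233).

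Ier3 (chromosome 17, 35821684 to 35822923, plus strand), known as a modulator of survival and of NF-kB and ERK signalling, was at 2373 and 2672 RPKM in fresh cells. It was at 813 and 878 RPKM at 12 h, 1323 RPKM at 24 h, 1035 RPKM in the 48h-titled library, and 1679 and 750.4 RPKM in organoids. Every cultured library was below both fresh ones, yet Ier3 kept a rank between 10 and 35 among the tested genes in all 8 libraries. No comparison of it passed (12 h against fresh log2 change -1.57, SE 0.48, limma adjusted p = 0.0988, organoids against fresh -1.16, SE 0.48, adjusted p = 0.166). The organoid libraries differed by more than the 24 h and 48h-titled libraries did, and lay on either side of the 12 h values.

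**Figure D2:**
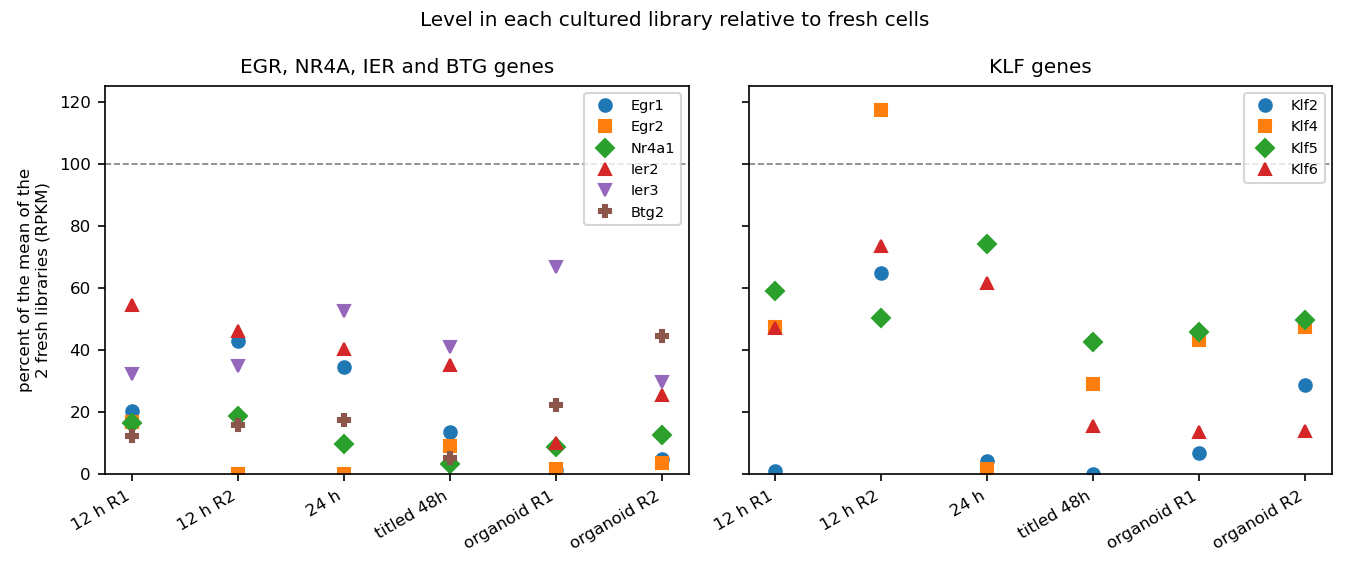
Level of each gene in the 6 cultured libraries (horizontal axis) as a percent of the mean of the 2 fresh libraries (vertical axis, linear from 0, dashed line at 100), with the EGR, NR4A, IER and BTG genes on the left and the Krüppel-like factors on the right. Klf5 lies between 42.4% and 74.0% in all 6, while Nr4a1 lies between 3.33% and 18.6%. The panels overlap: Ier3 on the left lies between 29.8% and 66.6%. On the right, Klf2 lies between 0% and 64.8% and Klf6 between 13.5% and 73.6%.

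Among the Krüppel-like factors, Klf5 (chromosome 14, 99298691 to 99315036, plus strand), known to support proliferation and identity of epithelial cells, was at 236 and 238 RPKM in fresh cells. It was at 139.6 and 119 RPKM at 12 h, 176 RPKM at 24 h, 100.6 RPKM in the 48h-titled library, and 109 and 118 RPKM in organoids. Klf5 had the highest RPKM of the Krüppel-like factors in all 8 libraries and ranked between 182 and 642 among the tested genes. Its cultured values lay below both fresh ones without exception, at 42.4% to 74.0% of the fresh mean. The log2 change was -0.87 at 12 h (SE 0.30, 95% interval -1.59 to -0.15, limma adjusted p = 0.125) and -1.06 in organoids (SE 0.30, interval -1.78 to -0.34, adjusted p = 0.0727), so neither passed. From 12 h to organoids the log2 change was -0.19 with an interval of -0.91 to 0.53 (adjusted p = 0.765). Klf5 was thus at 1 RPKM or more in every library, as were Egr1, Klf6, Nr4a1, Ier2, Ier3 and Btg2. Both Klf5 intervals against fresh cells lay below 0 although the adjusted p did not pass.

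Klf6 (chromosome 13, 5861482 to 5870394, plus strand), an early response Krüppel-like factor known from liver injury, was at 179 and 135 RPKM in fresh cells and at 74.1 and 116 RPKM at 12 h. It was at 96.6 RPKM at 24 h, 24.3 RPKM in the 48h-titled library, and 21.1 and 21.6 RPKM in organoids. The 3 latest libraries by title lay together, below all others. Its mean was 7.36-fold lower in organoids than in fresh cells (log2 change -2.81, SE 0.36, limma adjusted p = 0.0119) and 4.44-fold lower than at 12 h (log2 change -2.07, SE 0.36, adjusted p = 0.0455). The 12 h log2 change from fresh cells was -0.74 and did not pass (SE 0.36, adjusted p = 0.245). Klf6 was the only 1 of the 10 called lower between organoids and 12 h, where 0.62% of tested genes were. That call was lost in 7 of 10 alternative settings. It was also lost without each single library of these 3 groups, where the log2 change ranged from -2.38 to -1.75. Without a fresh, a 12 h or the first organoid library no tested gene was called in this comparison, so that loss is not particular to Klf6.

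Between organoids and 12 h, none of the 10 was called higher, where 1.38% of all tested genes were, and limma gave 1, Btg2, as higher at an unadjusted p under 0.05. Both organoid libraries lay below both 12 h libraries for 6 of the 10, against 24.1% of tested genes, and the median log2 change was -0.45, beside -0.09 for all tested genes.

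Klf4 (chromosome 4, 55527143 to 55532466, minus strand), known as a factor of barrier epithelia and as a reprogramming factor, was at 5.29 and 10.99 RPKM in fresh cells and at 3.87 and 9.54 RPKM at 12 h. It was at 0.12 RPKM at 24 h, 2.37 RPKM in the 48h-titled library, and 3.51 and 3.86 RPKM in organoids. Fresh and 12 h values overlapped, which held for Klf4 alone among the 10, and the 24 h library, the one with the fewest genes detected, stood apart at 1.47% of the fresh mean. No comparison passed (log2 change -0.28 at 12 h, SE 0.58, limma adjusted p = 0.799, and -0.89 in organoids, SE 0.58, adjusted p = 0.349).

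Klf2 (chromosome 8, 72319033 to 72321656, plus strand), best known from endothelium under flow and from resting T cells, was at 5.25 and 7.21 RPKM in fresh cells. It was at 0.0517 and 4.04 RPKM at 12 h, 0.254 RPKM at 24 h, 0 in the 48h-titled library, and 0.431 and 1.79 RPKM in organoids. The 12 h libraries thus differed widely, on about 2 and 162 reads, and the value of 0 in the 48h-titled library allows up to 0.0742 RPKM. No comparison passed (log2 change -1.64 at 12 h, SE 0.78, limma adjusted p = 0.234, and -1.84 in organoids, SE 0.78, adjusted p = 0.171). The summed endothelial markers were 0.0382 RPKM in the first 12 h library and 1.72 RPKM in the second, in the order of Klf2. In the library titled 48h, where Klf2 was at 0, they summed to 2.17 RPKM, of which Eng made 2.08 RPKM. Eng was the highest of these markers in fresh cells, at 1.89 and 1.94 RPKM, and was at 0 in both 12 h libraries. Pecam1 was at 0.295 and 0.502 RPKM in fresh cells and at or below 0.023 RPKM in culture. Cdh5 was at most 0.90 RPKM, in the second 12 h library. The part of endothelial markers in the level of Klf2 was not tested.

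**Figure D3:**
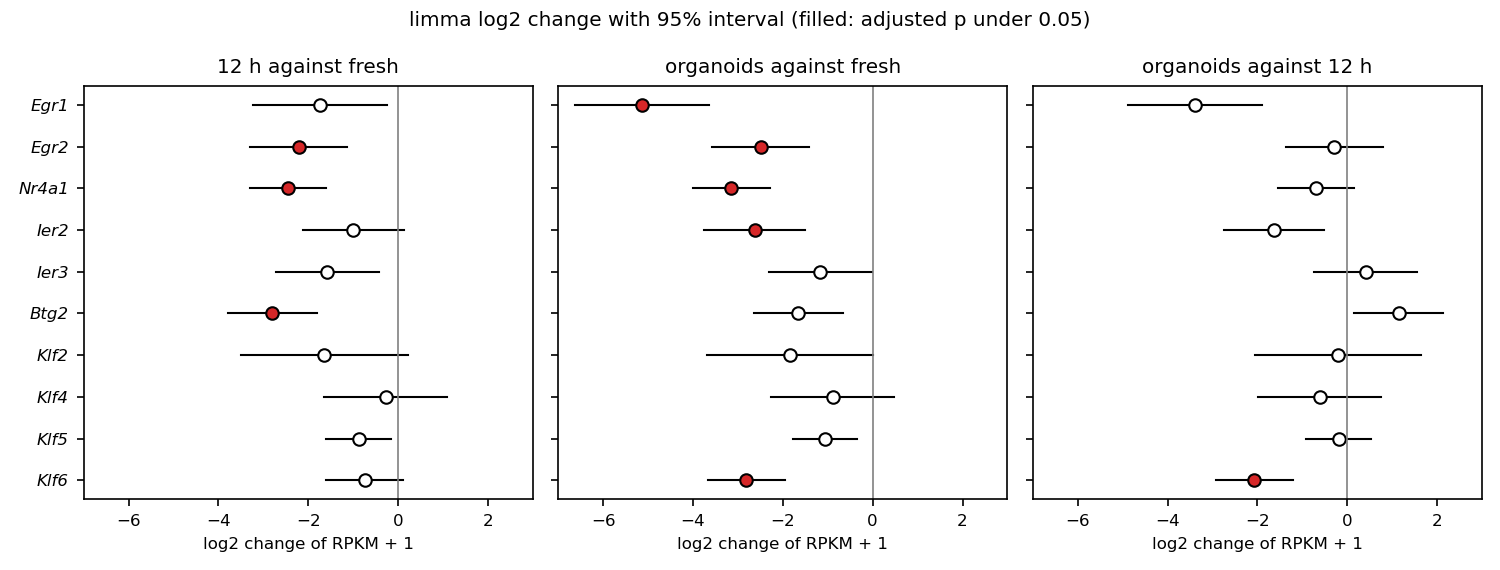
Log2 change of RPKM + 1 (horizontal axis) of each of the 10 genes in the 3 comparisons of groups with 2 libraries, with 95% intervals from limma and filled points where the adjusted p was under 0.05. Filled points are Egr2, Nr4a1 and Btg2 at 12 h, Egr1, Egr2, Nr4a1, Ier2 and Klf6 in organoids against fresh cells, and Klf6 alone in organoids against 12 h.

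Of the other Krüppel-like factors, 10 of 13 entered the fit. None was called in any of the 3 comparisons by limma, where 0, 3 and 2 were lower at an unadjusted p under 0.05 at 12 h, in organoids against fresh cells and in organoids against 12 h, and 0 were higher in each. Their median log2 changes were 0.33, -0.84 and -0.89 in that order. Klf10, the TGF-beta inducible early gene, was the next highest after Klf5 and Klf6 in fresh cells. It was at 94.5 and 94.6 RPKM there, 44.7 and 79.8 RPKM at 12 h, 47.6 RPKM at 24 h, 25.9 RPKM in the 48h-titled library, and 26.8 and 35.8 RPKM in organoids. Like Klf6 it was lowest in the library titled 48h and the organoids, with a log2 change in organoids of -1.58 that missed the threshold (SE 0.39, limma adjusted p = 0.051) and passed with median centring (adjusted p = 0.0348). Klf11, its nearest relative in the family, was at 20.1 and 21.9 RPKM in fresh cells and at 6.04 and 7.53 RPKM in organoids (log2 change -1.51, SE 0.40, adjusted p = 0.0604). Klf3, a repressor, was at 12.9 and 9.76 RPKM in fresh cells, 19.0 and 17.9 RPKM at 12 h and 10.4 and 7.16 RPKM in organoids, and none of these differences passed. Klf1, Klf12 and Klf15 were each high in 1 of the 12 h libraries, at 4.68, 13.4 and 12.9 RPKM, and at or below 1.81 RPKM in the other 7.

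**Figure D4:**
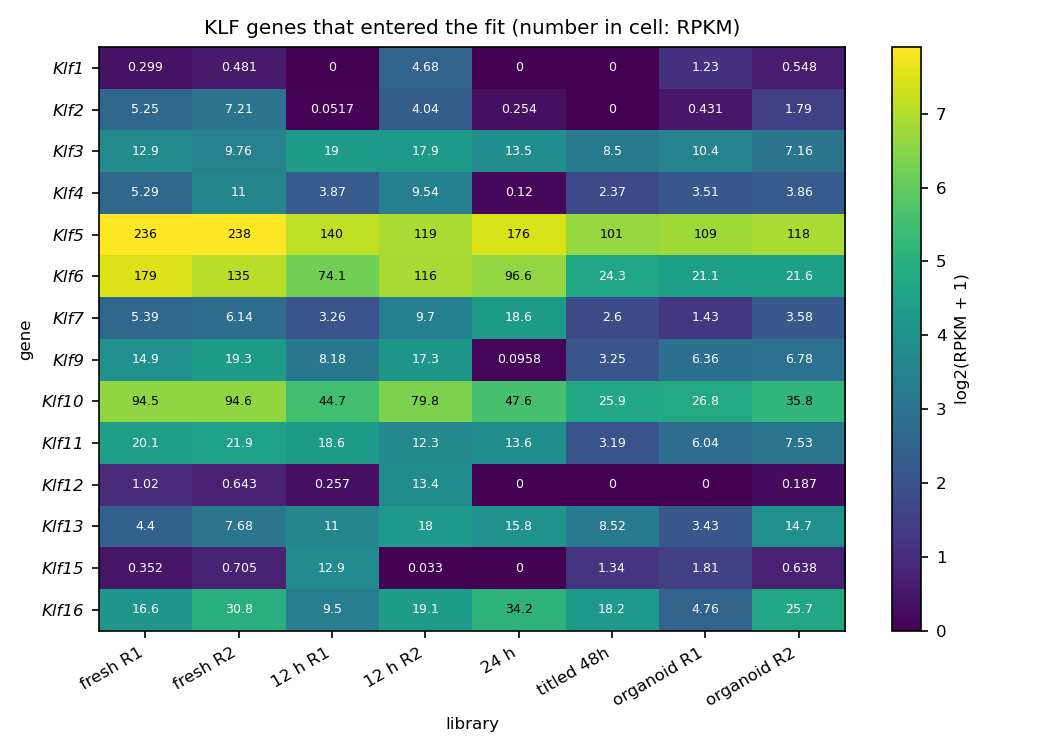
Expression of the 14 Krüppel-like factor genes that entered the fit (rows) in the 8 libraries (columns), coloured by log2(RPKM + 1) and with the RPKM printed in each cell. Klf5 is the brightest row in all 8 libraries, and Klf4 and Klf9 are dark in the 24 h library. Klf6 and Klf10 are darkest in the library titled 48h and the organoids, and darker at 12 h and 24 h than in fresh cells.

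Among the closest family members of the immediate early genes, Egr3, Egr4 and Nr4a3 stayed below the filter. Nr4a2, the Nr4a1 paralogue also called Nurr1, was at 1.03 and 0.658 RPKM in fresh cells, 4.5 and 0.476 RPKM at 12 h and 1.26 and 3.96 RPKM in organoids, and was not called. Ier5 was at 34.1 and 58.8 RPKM in fresh cells and at 11.1 and 25.5 RPKM at 12 h (log2 change -1.35, SE 0.65, limma adjusted p = 0.24). Btg1, the paralogue of Btg2, was at 62.6 and 77.9 RPKM in fresh cells, 60.7 and 65.1 RPKM at 12 h and 67.3 and 47.1 RPKM in organoids, with overlapping groups in organoids. Tob1, another antiproliferative gene of the BTG and TOB family, was at 20.3 and 25.2 RPKM in fresh cells and at 41.0 and 65.6 RPKM in organoids (log2 change 1.16, SE 0.37, adjusted p = 0.0967). Btg3 and Tob2 were not called either.

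A list of 37 other immediate early genes, 36 of them tested, was drawn up with results of these data known and is no independent evidence. At 12 h 9 of the 36 fell and 1 rose, against 3.72% and 3.09% of all tested genes, with a median log2 change of -1.51. In organoids 18 fell and 1 rose, against 4.94% and 5.15%, with a median of -2.58. The largest falls at 12 h were those of the AP-1 gene Fosb, from a mean of 42.8 to 0.436 RPKM (log2 change -4.90, limma adjusted p = 0.0189), the stress-induced Atf3 (-3.56, adjusted p = 0.026), the mRNA decay factor Zfp36 (-3.39, adjusted p = 0.0189) and Csrnp1 (-3.23, adjusted p = 0.0266). In organoids they were those of the AP-1 gene Fosl1, from a mean of 959.6 to 8.44 RPKM (-7.07, adjusted p = 0.00746), Atf3 (-5.35, adjusted p = 0.00664), Fosb (-5.21, adjusted p = 0.00746) and Csrnp1 (-5.14, adjusted p = 0.00664). Fosb reached 1 RPKM in the fresh libraries only. It passed the filter through the group where it is high, which favours a lower call in both comparisons with fresh cells. Between organoids and 12 h, 1 gene, Fosl1, fell, against 0.62% of all tested genes (log2 change -4.52, adjusted p = 0.0388), and the list's median was -0.83. The gene that rose in both comparisons with fresh cells was Ccn2, a matrix protein gene also known as a YAP target (1.91 RPKM in fresh cells, 13.6 at 12 h and 18.2 in organoids), named here after its values were seen.

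Genes of the signalling inputs and corepressors of these factors, 19 of 20 tested, mostly did not pass, and the 1 called lower in each comparison with fresh cells is near the share of all tested genes, 3.72% at 12 h and 4.94% in organoids. At 12 h this was the cAMP-responsive repressor gene Crem, from a mean of 13.6 to 2.29 RPKM (log2 change -2.16, SE 0.43, limma adjusted p = 0.0398), and 3 were lower and 4 higher at an unadjusted p under 0.05. In organoids it was Srf, which encodes serum response factor, the protein known to bind the CArG box marked in the Egr2 promoter, from a mean of 16.0 to 2.23 RPKM (log2 change -2.51, SE 0.58, adjusted p = 0.0433). At 12 h Srf had a similar log2 change of -2.55 that missed the threshold (SE 0.58, adjusted p = 0.0504). Any link between the level of Srf and that of Egr2 was not tested. Of 12 epithelial transcription factors, 11 tested, 1 fell at 12 h, against 3.72% of all tested genes, and 0 were called in organoids against fresh cells, where 4.94% of all genes were lower and limma gave 2 as lower and 0 as higher at an unadjusted p under 0.05. The one that fell was Grhl1, a grainyhead factor of surface epithelia, at 9.23 and 8.34 RPKM in fresh cells and 0.273 and 0 RPKM at 12 h (log2 change -3.12, SE 0.42, adjusted p = 0.0239), and it stood at 9.27 RPKM in the 48h-titled library and at 2.56 and 2.81 RPKM in organoids.

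As a description, the Pearson correlation of log2(RPKM + 1) over the 8 libraries, which share depth, culture time and markers of other cells, gave the genes most like each of the 10. For Ier2 these were Plaur (r = 0.997), Cxadr (0.994) and Crp (0.991), all 3 lowest in the first organoid library. For Nr4a1 they were Atf3 (0.976), Sqstm1 (0.971) and Sgms2 (0.968), lowest in the library titled 48h for Atf3 and Sqstm1. For Egr1 they were Chmp4c (0.987), Baiap2l1 (0.986) and Palld (0.984), for Egr2 Cnksr1 (0.985), Vtn (0.981) and Cyp2d22 (0.980), and for Btg2 Thbs1 (0.967), Csrp1 (0.953) and Rnf2 (0.944). Among the Krüppel-like factors, Klf4 was most like its relative Klf9 (0.979), which was also near 0 in the 24 h library, at 0.0958 RPKM. Klf5 was most like Fxyd1 (0.985), Ly96 (0.981) and Mbp (0.974), Klf6 like Fcgrt (0.973) and Riok3 (0.955), and Klf2 like Zswim4 (0.968), Tbc1d10a (0.961) and Lrrfip2 (0.952). Ier3 was most like Ube2d3 (0.973), Isg20 (0.939) and Pfkp (0.937), all higher in the first organoid library than in the second. Within the 10, the highest coefficients were those of Egr1 with Ier2 (0.957) and with Klf6 (0.923), and the lowest was that of Klf4 with Klf5 (0.170).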

How the data were processed

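The authors deposited 1 table of RPKM values for 8 libraries, made per the labels by Smart-seq2 and Nextera XT from column-purified RNA. The genome build GRCm38 and the tool edgeR are named in the submitters' processing notes. These sources give no aligner, counter, annotation or strand setting. GENCODE M21 named 47224 of the 47729 identifiers. No other gene was annotated over any of the 10. Of the small values, 89.3% to 92.8% per library were whole reads within 0.01, which gave the effective reads. Limits from 3 reads cover counting error only.

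Values were log2(RPKM + 1), with no scaling between libraries. The filter for entry was 1 RPKM or more in 2 or more libraries, and the genes left entered limma 3.58.1 (R 4.3.3), with 5 group coefficients, eBayes with trend, 3 residual degrees of freedom and 3.65 from the prior, two-sided p and Benjamini-Hochberg adjustment within a comparison. The 2 groups with 1 library are given by value. The steps were tested on simulated data. Alternatives changed the offset, filter, scaling, variance model, samples and block. The 10 genes and the lists were chosen with earlier results of these data known. Named genes were the 10, tested genes of their families, up to 4 passing genes per other list by size of change, and the 3 most correlated protein-coding genes whose mean was 5 RPKM or more. One gene that this rule names for Klf6 is not reported here.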

Additional observations from a re-analysis of the deposited data

How the results depend on the processing

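Groups hold 2 libraries at most. Leaving 1 library in a compared group mostly left few or none of all tested genes called. Calls lost that way are then not particular to the 10. In a cultured library Egr2 rests on 0 to 67 reads, Klf2 on 0 to 162 and Klf4 on about 7 at its lowest. At 12 h 3 of the 10 genes were lower than in fresh cells, 1 with no filter on low values, and 0 to 3 when single libraries were left out (in the cases of 0, 3 to 5 at an unadjusted p under 0.05). In organoids against fresh cells there were 5, 2 with no filter, and 0 to 5 without single libraries. In organoids against 12 h there was 1. It became 0 with an offset of 5, no filter, eBayes without trend, library weights or only the groups compared (3 or 4 at an unadjusted p under 0.05), 2 with a mean of at least 5 RPKM or quantile normalization, and 0 to 1 without single libraries. None of the 10 was called higher by limma in any setting, with 0 or 1 higher at an unadjusted p under 0.05.

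Nr4a1 (12 h, organoids) and Klf6 (organoids) against fresh cells passed in all 10 alternative settings other than leaving out single libraries. Egr2 passed in 4 of 9 at 12 h. Over all single-gene results and settings, 395 kept direction and side of the threshold, 52 lost the call, 15 gained it and 9 changed sign, none of them called. In organoids against 12 h the changed signs were Klf2 (0.34 with an offset of 0.1, -1.33 to 0.93 without single libraries), Klf5 (0.0018 with median centring), Ier3 (-0.22 with quantile normalization, -0.17 to 0.99 without single libraries) and Egr2 (-0.76 to 0.19 without single libraries). At 12 h Klf4 ranged from -0.84 to 0.28. The causes were not tested. Median centring moved every log2 change by -0.33, -0.14 and 0.19 at 12 h, in organoids against fresh cells and in organoids against 12 h.

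The replicate numbers share no stated source. Differences between replicates correlated at 0.19, 0.22 and 0.018 between groups, and with a replicate block 2, 6 and 1 of the 10 were lower in the 3 comparisons. With the block Egr2 lost its 12 h call (limma adjusted p = 0.0584), Btg2 gained one in organoids against fresh cells (0.0382), and in organoids against 12 h the 1 gene was Egr1 (0.0422) in place of Klf6 (0.0565).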
